A study of Mus musculus with 8 samples.

Results

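The comparison described here set left hippocampi of naive Cav3.2 knockout mice (KNL) against left hippocampi of naive wild-type mice (WNL), with 2 arrays in each group and thus 4 of the 8 arrays of the series. The groups were chosen by their genotype and treatment labels alone. All animals were male mice of 6 to 8 weeks on a C57BL/6 background, and the study's methods name the wild-type mice C57BL/6J. Naive mice received no conditioning, and the knockout is constitutive, so that every cell of the animal carries it from conception. The 4 other arrays came from trained mice of the 2 genotypes (WTL and KTL), which underwent trace fear conditioning (TFC), in which a tone is followed after a gap by a foot shock, and were killed after a test of contextual memory. Those arrays entered the estimate of the spread and served to set levels, but not the difference itself. The knockout line had been bred onto C57BL/6 for several generations. The study's methods describe purchased wild-type animals and elsewhere call the wild-type mice littermates, so shared litters are not settled. Each RNA was pooled from 3 mice and the labels give 3 animals a group. Nothing states that the 2 arrays of a group came from separate pools, so p-values measure the spread between arrays, which may be technical.

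Cacna1h encodes Cav3.2, a pore-forming subunit of the T-type calcium channels, which open at weak depolarization and let calcium enter near the resting potential. In hippocampal neurons these channels take part in burst firing and in long-term potentiation, the strengthening of synapses thought to store memory. Calcium that enters acts through calmodulin, its kinases and the phosphatase calcineurin, and through kinases that reach the nucleus it drives activity-dependent genes such as Fos, Egr1 and Bdnf. The question of the comparison is how the loss of Cav3.2 alters the hippocampal transcriptome in the absence of training.

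Values on all 8 arrays were given for 16588 of the 29922 mouse probes, of which 13183 carried a symbol, for 11136 genes. Intensities are on a linear scale with arbitrary units, and those under 100 were set to a floor of 100, where 6.64 to 6.86% of an array's probes lay. Array medians lay between 481 and 482. Replicate arrays correlated at 0.985 in WNL and 0.985 in KNL on the log2 scale. The KNL arrays stood apart from every other group, with correlations of 0.852 to 0.938 to the other 6 arrays, against 0.968 to 0.985 between arrays of the other groups. The genotype and anything else that the KNL arrays share cannot be told apart. Neuronal transcripts were bright in each naive array, as for hippocampal tissue: Snap25, the synaptic membrane fusion protein, had intensities of 65444 and 60758 in WNL and of 65476 and 65479 in KNL, at the ceiling of the scanner, where a difference cannot be measured.

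Cacna1h itself was measured by 1 probe. Its intensities were 2732 and 2985 in WNL against 1929 and 1377 in KNL, with no overlap. The log2 change of -0.81 ± 0.25 (standard error of the fit, 2 arrays against 2) did not pass the test, with an adjusted p of 0.0303. The trained arrays read 2836 and 1838 in WTL and 1171 and 1395 in KTL. The position of the probe against the deletion is not given in the sources used here, so its remaining signal in KNL neither checks the genotype labels nor goes against them.

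A probe was called up-regulated or down-regulated where KNL and WNL differed by more than 2-fold at an adjusted p under 0.01, the thresholds of the study. In KNL 1149 probes were up-regulated, 6.93% of those tested, and 2234 were down-regulated, 13.5%. On the brightest probe of each gene 695 genes rose (6.24% of 11136) and 1517 fell (13.6%). Falls were also larger than rises. Among called probes the median log2 change was 1.19 for rises and -1.55 for falls. A total of 554 probes fell more than 4-fold and 69 fell more than 8-fold, while 2 rose more than 4-fold and 0 more than 8-fold. The median change over all probes was 0.16, so that most probes lay slightly higher in KNL while the called ones mostly lay lower. With changes centred on that median, 533 probes rose and 2683 fell, and rises made up 16.6% of the calls in place of 34.0%. With the 4 naive arrays both normalized and fitted alone, rises made up 20.7%. The share was also 20.7% with the main normalization and only the fit limited to those arrays. Other settings raised it, to 41.3% with SAM, the study's test, and to 40.1% at an adjusted p under 0.05. Without the 2-fold limit rises made up 49.4%, with 3094 probes up and 3168 down. The groups did not overlap in any of the 3383 called probes, and also not in many others: KNL lay above WNL in 7849 probes and below it in 5894.

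**Figure D1:**
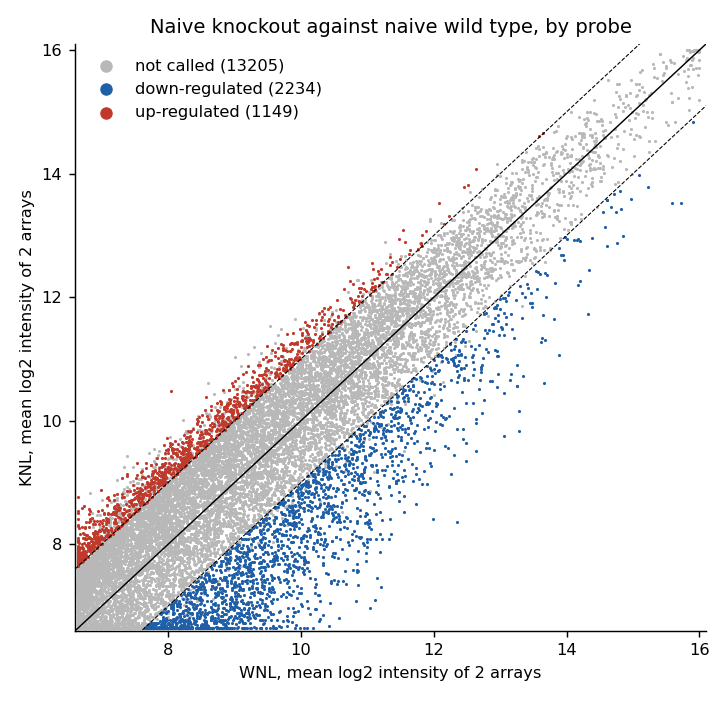
Mean log2 intensity of the 2 WNL arrays (x) and of the 2 KNL arrays (y) for 16588 probes. Grey points were not called, blue points (2234) were down-regulated and red points (1149) up-regulated, the solid line marks equality and dashed lines a 2-fold change. Blue points spread far below the dashed line at all but the lowest levels, while red points stay close to it.

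The stability of the calls differed between the directions. When each of the 4 naive arrays was left out in turn, 1068 down-regulated probes (47.8%) were called down each time, against 164 up-regulated probes (14.3%). Leaving out the second KNL array had the largest effect, with 228 probes up and 1174 down. Without the second WNL array 449 rose and 1366 fell, without the first KNL array 703 rose and 1763 fell, and without the first WNL array 1017 rose and 1631 fell. Leaving out either KTL array also lowered the count of rises, to 743.

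The share of called probes depended on the level of the transcript. Levels were set by the 4 trained arrays, which do not enter the difference between KNL and WNL, in 10 bins of about equal size. Falls were rare at the bottom, with 0.121% of the probes of the lowest bin (levels of 100 to 121) and 2.47% of the next, where the floor leaves no room to measure a fall. From the third bin (168 to 235) the share called down rose to 11.3% and reached 19.4% in the sixth (480 to 708), and in the brightest bin (above 3720) it was 13.2%. Rises made up 6.21% of the lowest bin, peaked at 11.4% in the fourth (235 to 332) and dropped to 1.08% in the brightest. The median change was 0.39 in the lowest bin and 0.00 in the brightest one.

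**Figure D2:**
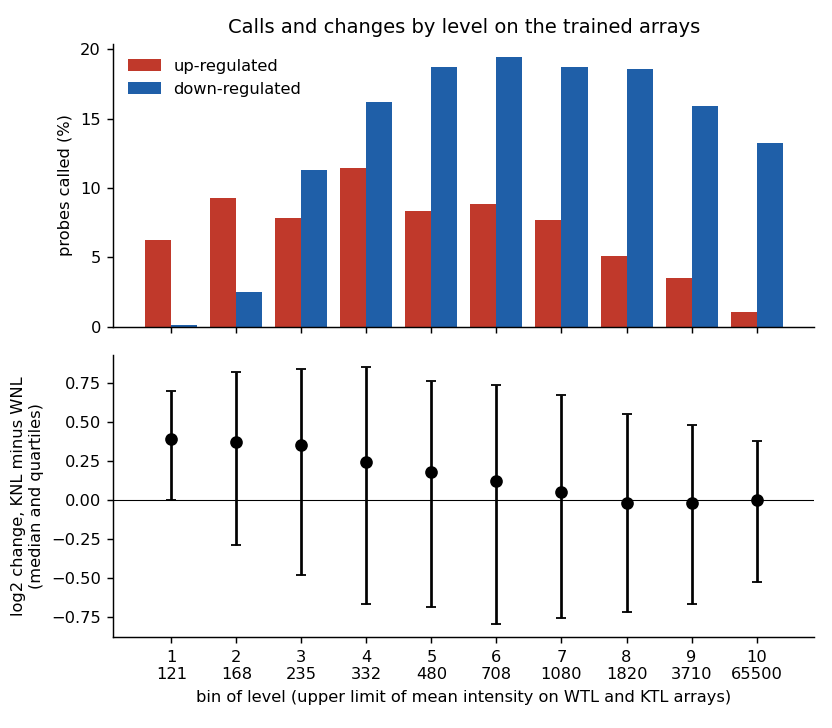
Share of probes called up-regulated (red) and down-regulated (blue) in KNL, and the median log2 change with its quartiles, in 10 bins of mean intensity on the WTL and KTL arrays. Rises peak at 11.4% in the fourth bin and drop to 1.08% in the brightest, whereas falls stay between 11.3% and 19.4% from the third bin on.

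Each bin had its own leading genes. Among bright genes, Hsp90aa1, the stress-inducible cytosolic chaperone, read 8962 and 8155 in WNL against 1083 and 685 in KNL, a log2 change of -3.31 ± 0.21 (adjusted p = 0.000164). Gap43, a protein of growing axons, read 2414 and 2297 in WNL against 193 and 129 in KNL, a change of -3.90 ± 0.24 (adjusted p = 0.000163). In both genes the arrays of a group lay close together and far from those of the other group. Nlk, a kinase of the Wnt pathway, had the largest fall of all, from 1949 and 2287 to 153 and 103 on its leading probe (-4.07 ± 0.52, adjusted p = 0.00138). On the trained arrays this probe ranged from 965 to 3247, its call was lost when any of the 4 naive arrays was left out, and the other 2 probes of Nlk were not called (0.21 and 0.61).

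Among bright genes that rose, Stat4, a transcription factor of cytokine signaling, read 2101 and 4207 in WNL against 8628 and 8711 in KNL (1.54 ± 0.30, adjusted p = 0.00560). The WNL arrays of Stat4 were 2-fold apart, and the call was lost without either KNL array and without any trained array. Inmt, an enzyme that methylates indoles, rose from 378 and 385 to 1208 and 1467 (1.80 ± 0.14, adjusted p = 0.000254) and kept its call without each array. Pde6h, a phosphodiesterase subunit of cone photoreceptors, led the lowest bin. It lay at the floor of 100 on the 2 WNL arrays and read 386 and 358 in KNL, at least 3.72-fold higher. Emilin3, an extracellular matrix protein, likewise lay at the floor in WNL and read 335 and 344 in KNL, at least 3.39-fold higher.

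The array carried several probes for 1759 genes, 3806 probes in all, which allowed the change of a gene to be read more than once on the same arrays. Probes of a gene share the RNA and the arrays and are not replicates of the comparison. Across these genes the change of the brightest probe and that of the second probe correlated at r = 0.21 (Spearman's rho = 0.21), had the same sign in 56.1% of genes, and differed by a median of 0.70 on the log2 scale. The same probe read on separate pairs of arrays was far closer to itself. The change of the first KNL array against the first WNL array and that of the second against the second correlated at r = 0.89, shared a sign in 86.5% of these genes and differed by a median of 0.27. With the pairs crossed, r was 0.93. These are correlations across genes, which are not independent. A change was thus closer between array pairs than between probes of one gene.

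In bins of the second probe's level, r between the probes of a gene was 0.18 to 0.24. Where the probes lay within 4-fold of each other in level (1176 genes), r was 0.26 and 58.2% of the genes shared a sign. Where they lay further apart (583 genes), r was 0.09 and 51.8% shared a sign. With the second probe in bin 9 or 10 of level (155 genes), r was 0.24. The sequences of the probes and the transcripts each one reads were not at hand, so isoforms and cross-hybridization were not tested.

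**Figure D3:**
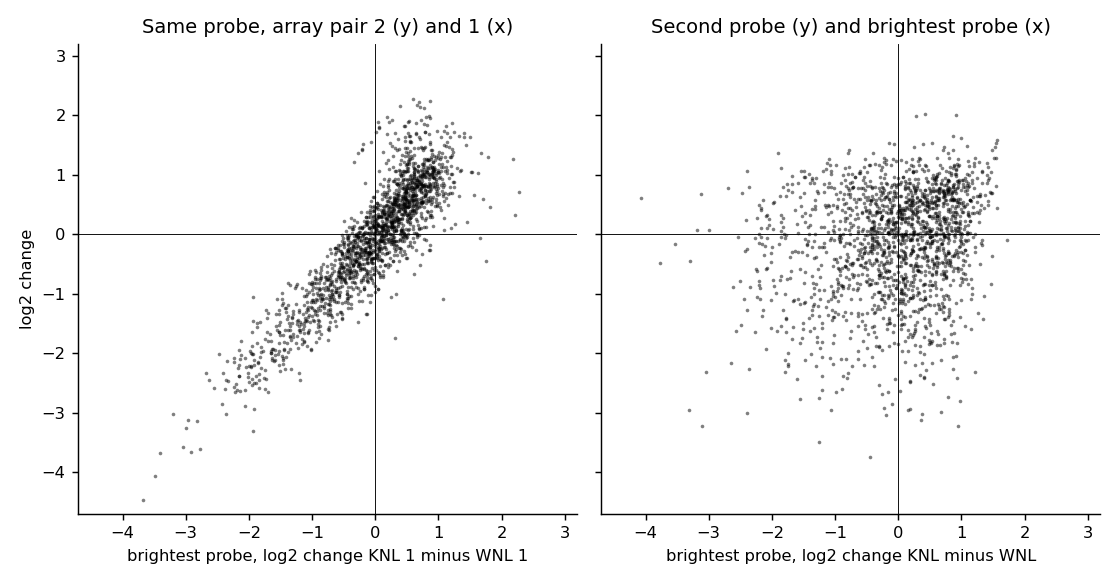
Log2 changes of 1759 genes with several probes. Left, the brightest probe on the second array pair (y) against the first pair (x), with points along the diagonal (r = 0.89), and right, the second probe (y) against the brightest probe (x), with points scattered over all quadrants (r = 0.21).

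At least 1 probe was called down in 495 of these genes and every probe in 71 of them (14.3%). At least 1 probe was called up in 169 genes and every probe in 9 (5.33%). Probes of 18 genes (1.02%) were called in opposite directions, and 1113 genes had no called probe. Where the brightest probe was called down (243 genes), the second was called down in 78 (32.1%), called up in 7 and not called in 158. Where the brightest was not called (1426 genes), the second was called down in 15.1%, against 15.8% of all probes of these genes. Where the brightest was called up (90 genes), the second was called up in 13 (14.4%) and down in 5, against 4.89% up among all probes of these genes.

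The genes whose probes all fell included several with large changes on each. Bex1, an adaptor protein abundant in neurons, read 1066 and 892 in WNL against 100 and 107 in KNL on its brighter probe. Its other probe read 925 and 847 in WNL against 100 and 104 in KNL. The log2 changes were -3.23 ± 0.14 (adjusted p = 0.000117) and -3.11 ± 0.15 (adjusted p = 0.00012), with KNL at or near the floor. Hsp90aa1 fell on its second probe as well, from 2039 and 1681 to 215 and 263 (-2.96 ± 0.16). Myo5a, a motor that carries organelles into dendritic spines, fell from 2354 and 2783 to 532 and 450 (-2.39 ± 0.17) on its brighter probe and from 916 and 1008 to 114 and 126 (-3.00 ± 0.28) on the dimmer one. These 3 genes kept each of their calls when any array was left out.

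Clk1, a kinase that phosphorylates splicing factors, had 3 probes and fell on each. They read 1941 and 1761, 1272 and 1467, and 695 and 780 in WNL, against 621 and 451, 306 and 322, and 172 and 142 in KNL. Tacc1, a coiled-coil protein of the cytoskeleton, had log2 changes of -1.74, -2.18 and -2.34 on its 3 probes. The changes were -2.64 and -2.16 for Ube2n, a ubiquitin-conjugating enzyme, and -2.36 and -2.26 for Tial1, an RNA-binding protein of stress granules. They were -2.77 and -1.55 for Cadm1, a synaptic adhesion molecule, and -2.57 and -1.63 for Ncl, the nucleolar protein nucleolin. C1ql3, a secreted protein of synapses, had called probes that were far apart, at -3.50 ± 0.30 and -1.26 ± 0.15. Of these 6 genes and Clk1, all but Tial1 had 1 probe whose call was lost without the second KNL array. Over the 71 genes the mean change ran from -3.17 to -1.08, and 8 of them had 3 or more probes. Others of the 71, named after their values were seen, were the splicing factor Srsf1, Pafah1b1 (Lis1), a regulator of dynein, and its partner Pafah1b2, the ubiquitin ligase subunit Rbx1, the recycling GTPase Rab11a, the secretases Bace1 and Adam10, and the cadherins Cdh8, Cdh10 and Cdh11.

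The 9 genes whose probes all rose had smaller changes, with means of 1.11 to 1.58. Pycard, the adaptor of the inflammasome, read 258 and 274 in WNL against 732 and 853 in KNL on one probe and 242 and 310 in WNL against 804 and 833 in KNL on the other. Its changes were 1.57 ± 0.15 (adjusted p = 0.000501) and 1.58 ± 0.18 (adjusted p = 0.000883), and the call of the second was lost without the second KNL array. Cyp4a10, a fatty acid hydroxylase, rose by 1.49 and 1.41. The others were Sh2d2a, Mcoln1, Hs3st3b1, Abca4, Ptges, Ung and Kdm2b, with changes of 1.05 to 1.52 on their 14 probes. Except for 1 probe of Sh2d2a and 1 of Kdm2b, each of these 14 lost its call without at least 1 array.

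In the 18 genes with opposite calls the probes lay a median of 2.58 apart on the log2 scale. Pde4dip, which anchors phosphodiesterase at the centrosome, rose from 454 and 408 to 922 and 1114 on one probe (1.24 ± 0.14, adjusted p = 0.000814) and fell from 508 and 641 to 112 and 100 on another (-2.43 ± 0.15, adjusted p = 0.000158). Its brightest probe, at 5220 and 4911 in WNL against 6235 and 6411 in KNL, was not called. Trim23, a ubiquitin ligase, fell from 461 and 592 to 109 and 100 on one probe and rose from 782 and 942 to 1998 and 1994 on the other, with changes of -2.32 ± 0.16 and 1.22 ± 0.12. Both probes of Trim23 and both called probes of Pde4dip kept their calls without each array. Herc3, another ubiquitin ligase, had changes of -1.85 and 1.12, and the rise was lost without any naive array. Tarbp2, a partner of Dicer, had changes of 1.14, 1.12 and -1.79, and Gon4l of 1.34 and -1.42. Pcdha1, whose 5 probes read a clustered protocadherin locus of many alternative first exons, rose on 2 probes, fell on 1 and was not called on 2.

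Calcium channel genes moved in each direction. Of 18 subunit genes measured, 3 were up-regulated (16.7%) and 4 down-regulated (22.2%), against 6.24% and 13.6% over all genes. The median change was 0.16 against 0.13 over all genes. Of the 6 pore-forming subunits 2 fell. Cacna1g, which encodes the related T-type channel Cav3.1, read 563 and 420 in WNL against 220 and 243 in KNL (-1.07 ± 0.19, adjusted p = 0.00377). Cacna1c, the L-type channel Cav1.2, fell from 728 and 714 to 352 and 364 on its brightest probe (-1.01 ± 0.11, adjusted p = 0.00079). Its 2 other probes lay at the floor in WNL and at 141 to 193 in KNL, without a call. Neither call held without the first WNL array or without the first KNL array, and that of Cacna1g was also lost without the second KNL array or a KTL array. The channels of the N and P/Q types, Cacna1b and Cacna1a, were not called.

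Among the auxiliary subunits, Cacnb4 read 2362 and 2374 in WNL against 837 and 592 in KNL, a log2 change of -1.75 ± 0.19 (adjusted p = 0.000831) that kept its call without each array. Cacng3, which also steers AMPA receptors to synapses, read 233 and 255 in WNL and 100 on either KNL array, the floor, at least 2.44-fold lower. Cacng4 rose from 267 and 230 to 532 and 559 (1.14 ± 0.12, adjusted p = 0.000696). Cacnb2 rose by 1.1 ± 0.14 and Cacng8 by 1.03 ± 0.14. None of the 3 rises passed with changes centred on their median, and without the second KNL array or the second WNL array 1 of the 3 remained called. Cacna2d2 showed a larger change than several called genes, from 343 and 358 to 134 and 144, but its error of 0.37 left it at an adjusted p of 0.0207.

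**Figure D4:**
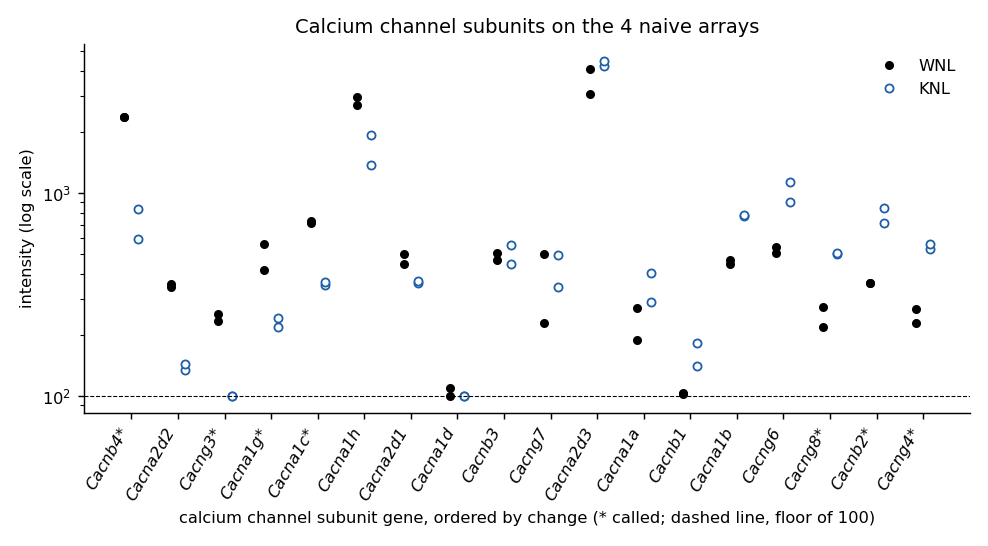
Intensity (log scale) of 18 calcium channel subunit genes on the 2 WNL arrays (black) and the 2 KNL arrays (open blue), on the brightest probe of each gene, ordered by change. Asterisks mark the 7 called genes, from Cacnb4 (-1.75) to Cacng4 (1.14), and the dashed line is the floor of 100.

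The machinery that clears and senses calcium showed falls. Of 23 pumps, exchangers and store channels 6 fell (26.1%, against 13.6% over all genes) and 1 rose (4.35%, against 6.24%). Atp2a2, the pump of the endoplasmic reticulum, read 5144 and 6057 in WNL against 983 and 714 in KNL (-2.74 ± 0.25, adjusted p = 0.000452). Ryr2, the ryanodine receptor that releases calcium from stores, fell from 3631 and 3049 to 813 and 792 on its brighter probe (-2.05 ± 0.18) and was not called on its dimmer one. Mcu, the uniporter of mitochondria, rose from 1174 and 1065 to 2261 and 2473 (1.08 ± 0.11, adjusted p = 0.000544). Falls in this list numbered 3 without the first or without the second WNL array. Of 15 calcium sensors 5 fell (33.3%), and the count was 3 without either WNL array or the second KNL array. The largest fall among them was that of Ncald (neurocalcin), from 6863 and 6636 to 1341 and 930 (-2.60 ± 0.23, adjusted p = 0.000394). Ryr2 was named after its values were seen.

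Of 7 genes of calcineurin and its regulators 0 were called. Of 14 calmodulin-dependent kinases 2 fell (14.3%, near the 13.6% over all genes) and 0 rose. These became 0 falls and 1 rise without the second WNL array and 1 of each without the second KNL array. Camk2a, the abundant synaptic kinase, had a log2 change of 0.10. Ppp3ca, the catalytic subunit of calcineurin, read 64211 and 56899 in WNL against 65476 and 64593 in KNL, near the ceiling of the scanner. Among 45 genes of cyclic AMP signaling 5 fell (11.1%, below the share over all genes), or 3 without the second KNL array. Of the 12 transcription factors of the CREB family and their partners 0 were called. Ppp1cb, a catalytic subunit of protein phosphatase 1, led the falls, from 6326 and 6471 to 796 and 673 (-3.13 ± 0.12, adjusted p = 0.000117). Its other probe was not called (0.67).

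Immediate early genes, which neurons transcribe within minutes of activity, split. Of 32 measured, 8 fell and 4 rose, both above the shares over all genes (13.6% down and 6.24% up). Egr1, a zinc finger factor of plasticity, read 9101 and 9945 in WNL against 3033 and 2209 in KNL (-1.88 ± 0.21, adjusted p = 0.00089). Bdnf, the neurotrophin, fell from 479 and 439 to 135 and 117 (-1.86 ± 0.13, adjusted p = 0.000223). Dusp1, a phosphatase of MAP kinases, fell from 535 and 586 to 139 and 126 (-2.08 ± 0.12, adjusted p = 0.000145), and Fos from 1024 and 1105 to 492 and 383 (-1.29 ± 0.16, adjusted p = 0.00123). Arc and Npas4, activity genes of the same class, had changes of -0.63 and -0.50 and were not called. Fosl1 rose from 429 and 244 to 788 and 1046 (1.49 ± 0.29), Klf4 by 1.47, Jund by 1.16 and Fosl2 by 1.11. Klf4 was called on 1 of its 3 probes, with changes of -0.31 to 1.47, and the other probe of Fosl2 was not called (0.87). Without the second KNL array 5 fell and 0 rose, without the second WNL array 6 fell and 0 rose, and without the first KNL array 8 fell and 2 rose. Egr1 and Fos were not called without the second KNL array, nor Fos without the second WNL array, while Bdnf and Dusp1 kept their calls. Egr1, Bdnf, Fos, Arc, Npas4, Klf4, Jund and Fosl2 were named after their values were seen.

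Several house-keeping machines of the cell held many falls, to be read against 13.6% over all genes. Among them the proteasome, which degrades ubiquitin-tagged proteins, was uneven. Of the 18 measured subunits of its regulatory particle, which recognizes and unfolds the tagged protein, 10 fell (55.6%) and 0 rose, with a median change of -1.28. Of the 11 subunits of its proteolytic core 1 fell (9.09%) and 0 rose, with a median of -0.24. Psmd14, the subunit that removes ubiquitin chains, read 1760 and 1771 in WNL against 257 and 144 in KNL (-3.20 ± 0.26, adjusted p = 0.000299). Psmd6 fell from 899 and 966 to 102 and 112 (-3.13 ± 0.16), Psmc5 from 1574 and 1919 to 260 and 278 (-2.69 ± 0.16) and Psmd12 from 1723 and 1763 to 337 and 243 (-2.60 ± 0.19). Psmd1, the brightest subunit, read 23761 and 20630 in WNL against 21889 and 23345 in KNL. Psma3 was the core subunit that fell, from 11683 and 11245 to 3820 and 3559. Psmb8, of the immunoproteasome, rose by 1.02 ± 0.16, a call lost without any of the naive arrays. Its other probe was not called (-0.51). The count of the regulatory particle was 6 without the second KNL array and 7 to 9 without another naive array. Psmd6, Psmc5, Psmd12 and Psma3 were named after their values were seen.

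Of 30 enzymes that activate or conjugate ubiquitin 10 fell (33.3%, against 13.6% over all genes) and 0 rose. Ube2e2 read 1077 and 1322 in WNL against 155 and 100 in KNL (-3.26 ± 0.22, adjusted p = 0.000186), while Ube2l3, the brightest, read 8615 and 8615 in WNL against 10009 and 10860 in KNL. The count was 5 without the second KNL array. Chaperones of the cytosol fell in 10 of 33 genes (30.3%) and rose in 0. Hspa8, the constitutive member of the Hsp70 family, fell from 4094 and 4102 to 790 and 691 (-2.47 ± 0.21), and Hsp90ab1, the constitutive partner of Hsp90aa1, had a change of -0.32 that was not called. The count of falls was 5 to 7 when a naive array was left out. In the endoplasmic reticulum Hspa5 fell from 620 and 786 to 112 and 101 (-2.72 ± 0.14, adjusted p = 0.000121). Hspa8 was named after its values were seen.

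Mitochondrial energy genes differed by complex. Of 23 genes of the TCA cycle, which oxidizes acetyl groups, 10 fell (43.5%, against 13.6% over all genes) and 0 rose. The 4 subunits of succinate dehydrogenase, the enzyme shared by the cycle and the respiratory chain, all fell. Sdhb fell from 4589 and 5550 to 1361 and 1016 (-2.10 ± 0.25), Sdhc from 5157 and 6365 to 1400 and 1128 (-2.19 ± 0.19), Sdhd from 1526 and 1803 to 381 and 246 (-2.44 ± 0.21) and Sdha from 431 and 471 to 129 and 138 (-1.76 ± 0.14). The second probe of Sdhc fell too (-1.09 ± 0.15). The calls of Sdhb and of that probe were lost without the second array of either group. Suclg1, a succinyl-CoA synthetase subunit, fell from 1634 and 1506 to 302 and 195 (-2.69 ± 0.24, adjusted p = 0.00038), while citrate synthase and the subunits of isocitrate dehydrogenase that use NAD were not called. The count was 7 without the second array of either group. Sdha, Sdhb, Sdhc, Sdhd, citrate synthase and the isocitrate dehydrogenase genes were named after their values were seen.

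Of 62 genes of the respiratory chain and ATP synthase 14 fell (22.6%, against 13.6% over all genes) and 2 rose. ATP synthase carried 6 of these falls among 10 measured subunits, with a median change of -1.70, and complex I carried 7 among 33. Atp5g3, a subunit of the rotating ring, read 12894 and 12876 in WNL against 1666 and 1485 in KNL (-3.03 ± 0.13, adjusted p = 0.000117), and was the subunit of ATP synthase that remained called without each array in turn. The ATP synthase count was 3 without either first array, 2 without the second WNL array and 1 without the second KNL array. Ndufb10, of complex I, fell from 1418 and 1609 to 205 and 140 (-3.16 ± 0.20, adjusted p = 0.000164). Its gene lies on chromosome 17 among the genes beside Cacna1h described below. Cyc1, the cytochrome of complex III, rose from 12173 and 12489 to 23965 and 26163 (1.02 ± 0.12, adjusted p = 0.00111), a call lost without the second KNL array. Falls of the whole list numbered 4 without the second KNL array, 6 without the second WNL array, 8 without the first WNL array and 9 without the first KNL array. Atp5g3 was named after its values were seen.

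Trafficking and transcription genes held further falls. Of 30 sorting nexins and retromer genes, which return receptors from endosomes, 8 fell (26.7%, against 13.6% over all genes) and 0 rose. Snx1 read 2173 and 2246 in WNL against 131 and 142 in KNL (-4.01 ± 0.13, adjusted p = 0.000117), a call kept without every array, and Vps29, the brightest of the list, had a change of -0.35. The count was 5 without the second array of either group. Of 48 Rab GTPases 12 fell, a larger share than the 13.6% over all genes, and 2 rose (4.17%, against 6.24% over all genes). Rab15, a GTPase of endosomes, led the falls, from 4504 and 5704 to 811 and 597 (-2.86 ± 0.21). The falls numbered 6 without the second KNL array and 7 without either WNL array. Of 27 subunits of Mediator, the bridge between activators and RNA polymerase, 8 fell (29.6%) and 0 rose. The falls numbered 2 to 5 when a naive array was left out. Med28 fell from 2374 and 2766 to 298 and 249 (-3.23 ± 0.13, adjusted p = 0.000117). Ribosomal protein genes showed no such pattern, with 1 fall among 22 (4.55%), that of Rpl4, and 0 rises, and Rpl4 lost its call without either WNL array or the second KNL array.

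**Figure D5:**
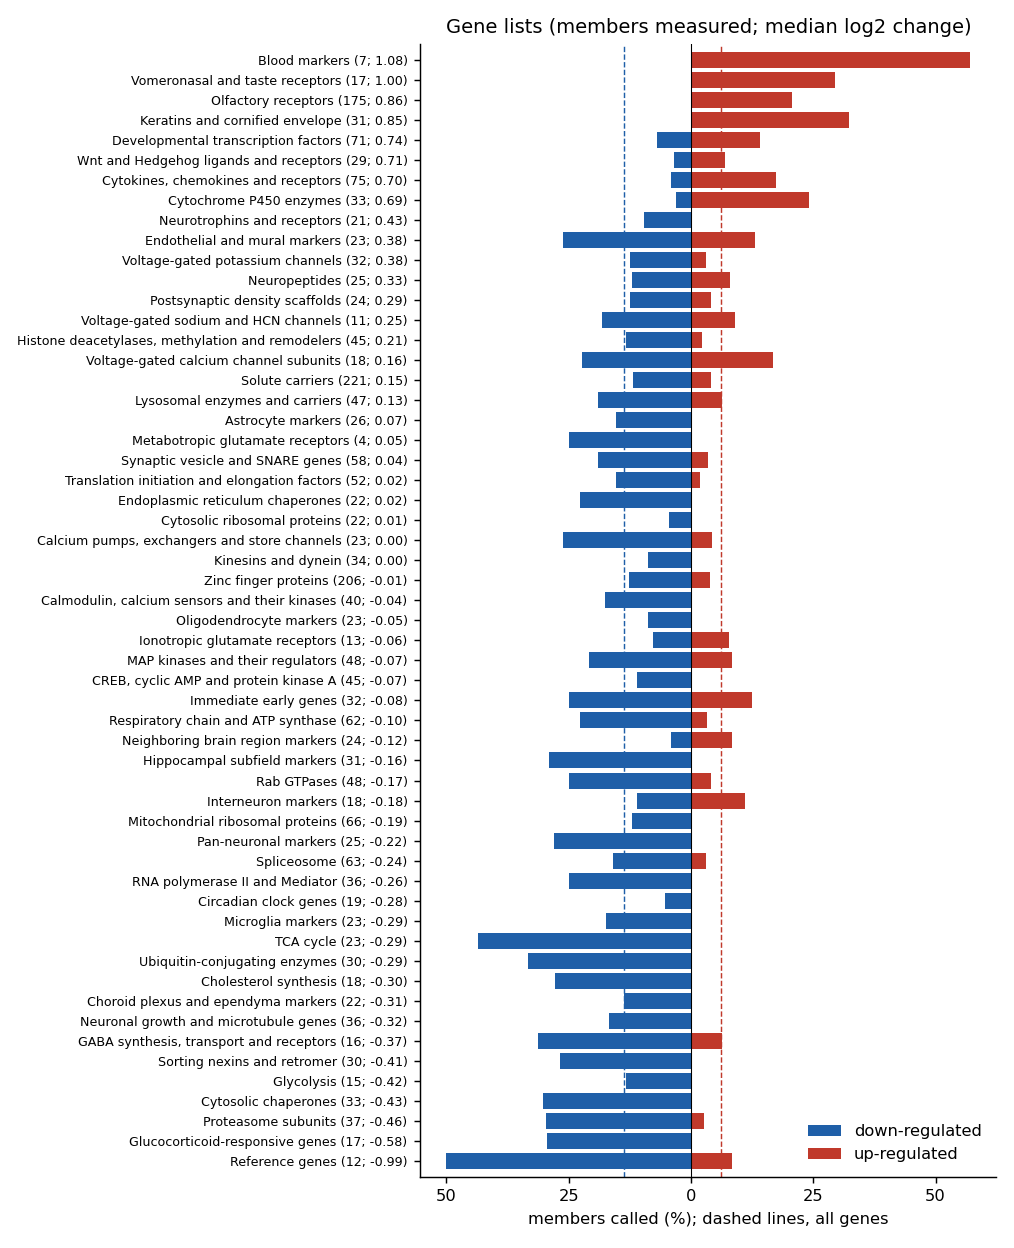
Share of the measured members of 56 gene lists called down-regulated (blue, to the left) and up-regulated (red, to the right), ordered by the median log2 change, with the number measured and the median beside each name. Dashed lines mark the shares over all genes, 13.6% down and 6.24% up.

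Genes widely used as references for equal input were among those that fell. Of 12 measured, 6 fell and 1, Cyc1, rose, with a median change of -0.99. Tuba1a, an alpha tubulin, read 16191 and 14290 in WNL against 2416 and 1886 in KNL (-2.83 ± 0.19, adjusted p = 0.000177). Hprt fell from 14059 and 12173 to 5784 and 4964 (-1.29 ± 0.12) and Tbp from 690 and 570 to 157 and 133 (-2.12 ± 0.14) on their brightest probes. The other probe of Tbp was not called (-0.34). Gusb, Ppib and Tfrc were not called either. The arrays had been brought to equal distributions, so such falls are falls relative to the other probes of an array. RNA quality beyond the integrity limit stated in the labels was not tested. Hprt, Tbp, Gusb, Ppib and Tfrc were named after their values were seen.

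Markers of hippocampal cells were checked next. In whole tissue fewer cells of a type and less RNA per cell cannot be told apart. Of 31 markers of hippocampal subfields 9 fell (29.0%, against 13.6% over all genes) and 0 rose. The falls also numbered 9 when any naive array was left out. Neurod6, a transcription factor of pyramidal neurons, read 2398 and 2859 in WNL against 401 and 206 in KNL (-3.19 ± 0.34, adjusted p = 0.000727). Spink8 fell from 1292 and 1286 to 315 and 205 (-2.34 ± 0.22), Neurod1 from 936 and 1034 to 262 and 172 (-2.21 ± 0.21) on its brighter probe and Prox1, the factor of dentate granule cells, from 386 and 373 to 117 and 100 (-1.81 ± 0.14). C1ql2, the brightest subfield marker and also of granule cells, had a change of 0.53 and was not called. Camk2a and Slc17a7, the vesicular glutamate transporter, both markers of the same excitatory neurons, had changes of 0.10 and -0.07. Spink8, Neurod1, Prox1, Camk2a and Slc17a7 were named after their values were seen.

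Of 25 pan-neuronal markers 7 fell (28.0%, against 13.6% over all genes) and 0 rose. Beside Gap43, Nsg2, an endosomal protein of neurons, fell from 3841 and 4320 to 383 and 300 (-3.59 ± 0.20), while Scg2, a granin of secretory vesicles, had a change of -0.01. The dimmer probe of Snap25, below the ceiling, fell from 845 and 530 to 260 and 238 (-1.43 ± 0.27, adjusted p = 0.00523). Of 16 genes of GABA signaling 5 fell (31.2%) and 1 rose (6.25%), and the falls numbered 3 without the second KNL array. Slc32a1, the vesicular transporter of GABA, read 2973 and 2620 in WNL against 646 and 490 in KNL (-2.31 ± 0.16, adjusted p = 0.000188). Interneuron markers fell in 2 and rose in 2 of 18 (11.1% each, against 13.6% down and 6.24% up over all genes). Npy, a peptide of interneurons, rose from 2992 and 3061 to 7638 and 7618 (1.33 ± 0.12, adjusted p = 0.000415), and Sst, another, had a change of -0.53 that was not called. Nsg2, Scg2 and the dimmer probe of Snap25 were named after their values were seen.

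Of 58 vesicle and SNARE genes 11 fell (19.0%, against 13.6% over all genes) and 2 rose (3.45%, against 6.24%). Pclo, a scaffold of the active zone, read 3999 and 3937 in WNL against 780 and 487 in KNL (-2.69 ± 0.32, adjusted p = 0.00103) on 1 of its 2 probes. The other probe was not called (0.77), and the call of the first was lost without the second array of either group. Syt3, a calcium sensor of vesicles, rose from 789 and 639 to 1804 and 2450 (1.57 ± 0.21, adjusted p = 0.00151), a call lost without the same arrays. The falls numbered 6 without the second WNL array and 5 without the second KNL array, and the rises 4 without the first WNL array. Among 13 ionotropic glutamate receptor genes 1 fell and 1 rose (7.69% each). Gria3, an AMPA receptor subunit, fell by 1.5 ± 0.21 on its brightest probe, from 3831 and 5024 to 1719 and 1403, and rose on another. Grin2d, an NMDA receptor subunit, rose by 1.25 ± 0.27. The fall of Gria3 was not called without either KNL array or the second WNL array, nor Grin2d without any array. Dlgap2, a scaffold of the postsynaptic density, fell from 509 and 525 to 135 and 121 (-2.01 ± 0.13, adjusted p = 0.000164) on 1 of its 2 probes. The other was not called (-0.47). Shank3, another such scaffold, rose by 1.12 ± 0.20, a call lost without any naive array.

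Among glial markers 4 of 26 fell in the astrocyte list, 2 of 23 in the oligodendrocyte list and 4 of 23 in the microglia list, with 0 rises. These shares were 15.4, 8.70 and 17.4%, against 13.6% over all genes. Slc7a10, a transporter of astrocytes, fell from 604 and 534 to 116 and 116 (-2.30 ± 0.12), Car2, a carbonic anhydrase of oligodendrocytes, by 1.66 ± 0.11, and Ctss, a protease of microglia, from 977 and 1031 to 172 and 129 (-2.75 ± 0.17). Clu, the brightest astrocyte marker, had a change of 0.04. Fcer1g, the brightest microglia marker, read 2451 and 2064 in WNL against 3923 and 4042 in KNL (0.82 ± 0.15) and was not called. On both KNL arrays 8 of the 23 microglia markers lay above WNL and 13 below. Over all genes 5185 of 11136 lay above and 4059 below. When a naive array was left out, falls numbered 2 to 3 for astrocytes, 2 to 4 for oligodendrocytes and 2 to 4 for microglia. Of 23 endothelial and mural markers 6 fell (26.1%) and 3 rose (13.0%, against 6.24% over all genes), with a median change of 0.38. The largest fall was that of Flt1, a receptor of vascular growth factor, at 451 and 441 in WNL and at the floor on the KNL arrays, at least 4.46-fold lower. Pglyrp1, a peptidoglycan recognition protein, had the largest rise, from 102 and 100 to 284 and 334 (1.61 ± 0.12), and Vtn, the brightest marker, had a change of 0.73 that was not called. The choroid plexus, which lies against the hippocampus in the ventricle, was represented by Ttr, its thyroid hormone carrier. Ttr read 49816 and 49065 in WNL against 13737 and 10093 in KNL (-2.07 ± 0.16, adjusted p = 0.000257). The summed level of the 22 measured choroid plexus and ependyma markers was 72900 and 71200 in WNL against 36300 and 35800 in KNL, mostly through Ttr, and 3 of the 22 fell, the same share (13.6%) as over all genes. Enpp2, an enzyme that makes lysophosphatidic acid, fell from 434 and 486 to 100 and 109 (-2.14 ± 0.12), and Slc13a4 by 1.67. The other markers, among them Folr1 (-0.33), Kl (-0.32) and Kcne2 (-0.30), were not called. The part of choroid plexus tissue in the other results was not tested. Slc13a4, Folr1, Kl and Kcne2 were named after their values were seen.

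Some lists of genes that brain tissue hardly uses held a larger share of rises than all genes did. Olfactory receptors, which sensory neurons of the nose express, rose in 36 of 175 genes (20.6%, against 6.24% over all genes) and fell in 0, with a median change of 0.86. Olfr1009 read 774 and 668 in WNL against 2427 and 2291 in KNL (1.71 ± 0.20, adjusted p = 0.000943), a call lost without the second WNL array or either KNL array. Vomeronasal and taste receptors rose in 5 of 17 genes (29.4%), keratins and cornified envelope genes in 10 of 31 (32.3%) and cytochrome P450 enzymes in 8 of 33 (24.2%). Their medians were 1.0, 0.85 and 0.69, and in these lists 1 gene, a P450 enzyme, fell. Cytokines, chemokines and their receptors rose in 13 of 75 (17.3%) and fell in 3 (4.0%). Developmental transcription factors rose in 10 of 71 (14.1%) and fell in 5 (7.04%). Krt31, a keratin of hair, read 127 and 100 in WNL against 265 and 364 in KNL (1.46 ± 0.21, adjusted p = 0.00189). Il7r, a cytokine receptor, rose from 517 and 464 to 1189 and 1398 (1.40 ± 0.12, adjusted p = 0.000404) and kept its call without each array.

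Many of these rises were not called when a naive array was left out. Without the second KNL array 3 olfactory receptors were called up, without the second WNL array 11, without the first WNL array 27 and without the first KNL array 29. Keratins rose in 2 genes without the second KNL array and in 3 without the second WNL array. The counts of vomeronasal and taste receptors were also 2 and 3 without these arrays, and 5 without either first array. P450 enzymes rose in 0 without the second KNL array, 2 without the first, 2 without the second WNL array and 4 without the first. For cytokines the count was 5 without the second array of either group and 6 without the first KNL array, and for developmental factors 2 to 5 without those 3 arrays. With changes centred on their median 21 olfactory receptors, 6 keratins, 3 P450 enzymes, 6 cytokine genes and 7 developmental factors rose. Of 7 blood markers measured 4 rose (57.1%, against 6.24% over all genes) and 0 fell, with fewer rises when any naive array was left out. Among the 4 was the red cell anion exchanger Slc4a1, which rose from 1062 and 701 to 1653 and 2001. The hemoglobin genes are not among the 7 measured. The part of blood in the other rises was not tested.

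Genes beside Cacna1h were listed in the order of the RefSeq annotation of GRCm38.p6, a choice made after values were seen. Of the 25 measured genes on each side of Cacna1h on chromosome 17, 5 fell and 1 rose, both below the shares over all genes (13.6% down and 6.24% up), with a median change of 0.26. Clcn7, a chloride transporter of lysosomes, read 412 and 371 in WNL and 100 on either KNL array, the floor, at least 3.91-fold lower, and read 421 and 343 in WTL and 160 and 137 in KTL. The largest fall of the 5 was that of Ndufb10 (-3.16). In 7 of these 50 genes the 4 knockout arrays, naive and trained, lay apart from the 4 wild-type arrays. That is a larger share than the 7.90% of all probes and the 11.1% of called ones that did so, and its cause was not tested.

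Called probes that lay apart in this way numbered 375, of which 24 also differed by more than 2-fold between KTL and WTL, and 18 of the 24 carried a symbol. Clcn7, Lemd2, Zfp758, Srrm2 and Bricd5 of them lie on chromosome 17, as Cacna1h does and as 529 of the 11136 measured genes do. Srrm2, a splicing factor, on its brightest probe read 472 and 422 in WNL, 887 and 977 in KNL, 381 and 474 in WTL and 1117 and 1181 in KTL. Bricd5 read 153 and 100 in WNL, 377 and 368 in KNL, 100 and 103 in WTL and 326 and 426 in KTL. On 1 of its 2 probes Lemd2 read 908 and 845 in WNL, 308 and 262 in KNL, 816 and 731 in WTL and 248 and 232 in KTL. That the trained arrays of these probes lay apart by genotype was the condition for choosing them. Setd3 on chromosome 12, a histidine methyltransferase of actin, and Mapk8 on chromosome 14, the kinase JNK1, were further genes of this kind, Setd3 at 1817 and 1990 in WNL against 442 and 281 in KNL, and Mapk8 at 235 and 253 in WNL against 508 and 487 in KNL. The brighter probe of Mapk8 was not called (-0.60). The genes of this paragraph were named after their values were seen.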

How the data were processed

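Total RNA of left hippocampi was amplified, labeled with Cy5 and hybridized to the Mouse Whole Genome OneArray, 1 colour, with 8 arrays in 4 groups of 2. The intensity values were normalized between arrays by the authors with the quantile method and deposited on a linear scale, with 16588 probes valued on every array and 13334 blank. The study's methods name a floor of 100, but lower values remain in the deposited table, so the floor was set again, followed by quantile normalization and log2. A linear model with 1 coefficient per group was fitted to all 8 arrays with limma 3.58.1 in R 4.3.3 (4 residual and 2.45 prior degrees of freedom). The Benjamini-Hochberg adjustment ran over 16588 probes. Calls required an adjusted p under 0.01 and a change above 2-fold. A ± value is the standard error of the fit. With no counts, the number of arrays limits the precision. The procedure was tested on simulated data.

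Symbols were matched to RefSeq (GRCm38.p6), which updated 2099 of them, and a gene was represented by its brightest probe. A probe at the floor on both arrays of a group has only a bound there. Its fold is written as at least that of the brighter group's mean over 100. Named genes were the calcium channel subunits, the genes with the largest agreeing and the widest opposite probe calls, the leading called probe of each level bin, and the largest rise, largest fall and brightest member of each of 56 gene lists. Other genes were named after their values were seen, as is said beside them. The groups, lists and tests were chosen with earlier results of these data known. Alternatives covered the floor, normalization, filters, test, thresholds, the replicate block and each array left out.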

Additional observations from a re-analysis of the deposited data

Results flagged for a closer look

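The genotype difference itself changed with training in many probes. The test was the interaction term of the same limma fit, the KNL and WNL difference minus the KTL and WTL difference, with the thresholds used for the naive comparison. It called 3610 probes, and 2620 of the 3383 probes called in naive mice (77.4%) were among them. Between KTL and WTL 4 probes were called, those of Kcne2 and Mrps6 and a pair without a symbol, and both genes were named after their values were seen. Kcne2, a potassium channel subunit abundant in choroid plexus, read 432 and 482 in WNL, 384 and 358 in KNL, 470 and 447 in WTL and 131 and 137 in KTL. Mrps6, a protein of the mitochondrial ribosome, read 3112 and 2518 in WNL, 1221 and 1449 in KNL, 2649 and 2471 in WTL, and lay at the floor of 100 in KTL. The interaction shares the 4 naive arrays with the difference it is set beside, including the KNL arrays that stand apart from all others.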

How the results depend on the processing

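The 4 counts that sum up the comparison were 1149 probes up, 2234 down, 80 genes with agreeing and 18 with opposite probe calls. Leaving out 1 array gave 228 to 1117 up, 1174 to 2307 down, 18 to 84 agreeing and 5 to 20 opposite. A floor of 200 gave 463, 1356, 30 and 6, and a floor of 50 gave 29 opposite. Quantile normalization of the 4 naive arrays alone, with the fit limited to them, gave 450 up, 33 agreeing and 6 opposite. A fit to those arrays alone under the main normalization gave 453, 34 and 7. Probes above the median intensity, tested alone, gave 565 up, 1262 down, 34 agreeing and 7 opposite, as fewer probes were tested, and counting only such probes gave 31 agreeing and 6 opposite. SAM, the study's test, gave 28 opposite. A test against a 2-fold change (limma treat) gave 3 up, 456 down, 3 agreeing and 0 opposite, where the main test gave 18. Without a limit on the change 3094 rose and 3168 fell, 176 genes agreed and 119 were opposite. Changes centred on their median of 0.16 gave 533 up and 5 opposite. Except where a setting's construction shows it, the cause was not tested. No count of the other settings moved by over 1.5 times.

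With the replicate block 975 probes rose, 2106 fell, 63 genes agreed and 15 were opposite. Deviations of same-numbered WNL and KNL arrays correlated at -0.246, and those of other pairs of groups at -0.249 to 0.432. With 2 arrays a group the deviations mirror each other, so they cannot settle whether the numbers pair the samples. A crossed pairing, chosen after seeing the data, gave 976 up and 2090 down. Of 229 named called probes 124 kept their call without each array, 105 of 149 falls and 19 of 80 rises. Intensities near the ceiling and the floor limit what can be measured at the brightest and dimmest probes.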

Other observations

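In further gene lists the shares that fell are to be read against 13.6% over all genes. Of 47 lysosomal genes 9 fell (19.1%) and 3 rose. The largest fall was that of Npc2, a carrier of cholesterol out of lysosomes, which read 1826 and 1890 in WNL against 199 and 182 in KNL (-3.29 ± 0.14, adjusted p = 0.000117). Galc, which degrades galactolipids of myelin, rose from 686 and 608 to 1313 and 1550 (1.14 ± 0.16, adjusted p = 0.00168). Without the second KNL array 5 fell and 0 rose. Of 18 genes of cholesterol synthesis 5 fell (27.8%) and 0 rose, led by Sqle, squalene epoxidase, from 501 and 557 to 142 and 113 (-2.06 ± 0.16), and the falls numbered 4 when any naive array was left out. Of 63 spliceosome genes 10 fell (15.9%, near the share over all genes) and 2 rose, led by the helicase Snrnp200, from 1021 and 1100 to 206 and 163 (-2.53 ± 0.14), with 5 falls without the second array of either group.

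Of 48 MAP kinases and regulators 10 fell (20.8%) and 4 rose. The adaptor Crk read 881 and 885 in WNL against 171 and 161 in KNL (-2.41 ± 0.09, adjusted p = 0.000117) on 1 of its 2 probes, and the other was not called (0.24). The phosphatase Dusp10 rose from 335 and 401 to 886 and 1151 (1.46 ± 0.18, adjusted p = 0.00123), while without the second KNL array 0 of the list rose. Of 17 glucocorticoid-responsive genes 5 fell (29.4%) and 0 rose, led by Nfkbia, an inhibitor of NF-kappa-B, at 506 and 447 in WNL and at the floor on the KNL arrays. Of 32 potassium channel genes 4 fell (12.5%) and 1 rose, with 2 falls without either WNL array, and the median change was 0.38, above the 0.13 over all genes. Kcnn2, a channel opened by calcium, fell from 383 and 363 to 100 and 102 (-1.88 ± 0.17, adjusted p = 0.000438).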
